A study of Mus musculus with 12 samples.

Results

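The genes described here are the Zfp genes of the mouse egg, which encode zinc finger proteins. They were the genes whose probe sets carried a single symbol of Zfp followed by a digit, without Zfp57, Zfp445 and the Zfp36 family, and with a probe set above log2 5 (an intensity of 32) on at least 3 of 12 arrays. The rule kept 124 of the 331 Zfp genes on the array, and each gene was read by its brightest probe set, the one whose log2 mean across arrays was highest. Full-grown CF1 mouse oocytes at the germinal vesicle stage had received a pool of siRNAs against Dcp1a, a pool against Dcp2, a mixture of the pools, or a control siRNA. They were held in milrinone, which blocks meiotic resumption, for 20 h and then matured in vitro for 18 h to eggs arrested at metaphase II. Each of these 4 groups had 3 biological replicates, each a pool of 30 eggs. Dcp2 is the enzyme that removes the 5′ cap of mRNA and Dcp1a is its cofactor, so the series asked what their loss during maturation did to the mRNA of the egg. The knockdown was transient, and every group had been injected.

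Most Zfp proteins bind DNA through tandem C2H2 zinc fingers, short modules that hold a zinc ion with a pair of cysteines and a pair of histidines. Many also carry a KRAB domain that recruits the corepressor Trim28 and the histone methyltransferase Setdb1, a route by which retroelements and imprinted loci are kept silent in the germ line and early embryo. Other proteins with the name act on RNA, ribosomes or the spindle. The egg does not transcribe, so its levels of these mRNAs depend on what was stored during growth and on how much of it was degraded during maturation.

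The targeted mRNAs were lower in the eggs that received their siRNAs. Dcp1a mRNA had intensities of 589.3 to 1235.5 after Dcp1a siRNA and 517.7 to 1233.3 after both siRNAs, against 5384.8 to 12427.1 in control eggs. Dcp2 mRNA was dim, at 4.9 to 5 after Dcp2 siRNA and after both, against 32.2, 30.4 and 81.8 in control eggs. Against the limit of 32 it was at least 1.35-fold lower in each (adjusted p = 0.0152 and 0.000378, limma). The call was lost under 7 of 19 alternatives after Dcp2 siRNA alone and under 1 after both. With values under the limit set to it, the change was -0.45 in each (adjusted p = 0.508 and 0.38, limma). The fall of Dcp1a after its own siRNA passed the test (-3.09 ± 0.42, adjusted p = 0.0319, limma), a call lost under 15 of 20 alternatives with no change of sign. With the median of all tested Dcp1a probe sets the change was -0.75 (adjusted p = 0.939) after Dcp1a siRNA and -1.03 (0.666) after both, against -3.09 and -3.47 by the brightest one. Across the 124 genes, replicates correlated at r of 0.989 to 0.99 after Dcp1a siRNA, 0.917 to 0.968 after Dcp2 siRNA, 0.934 to 0.986 after both and 0.934 to 0.957 in control eggs. Several arrays stood nearer to another group than to their own. Control replicate 1 correlated best with Dcp1a siRNA replicate 1 (r = 0.989), control replicates 2 and 3 with Dcp1a siRNA replicate 2 (0.968 and 0.966), Dcp2 siRNA replicate 2 with that same array (0.981), and Dcp2 siRNA replicate 1 with control replicate 1 (0.97). These correlations are across genes on arrays normalized together and are given as a description. Of 19 oocyte markers 15 were bright enough to be tested. After both siRNAs 2 rose and 0 fell, beside 6.79% and 1.66% of all genes, with a list median of 0.30. Those that rose were Zp2 (2.08, adjusted p = 0.0122) and Zp3 (2.14, adjusted p = 0.0187, limma), which encode proteins of the egg coat. Without double knockdown replicate 2 these calls ended (adjusted p = 0.0547 and 0.0749), as did that of Zp3 without its replicate 1 (0.0608). They were lost also with no filter on dim probe sets (0.0954 and 0.14) and with only the arrays of the compared groups (0.076 and 0.118, limma). Dppa3 (-0.61), Kit (-0.54), Ddx4 (-0.40) and Dazl (-0.39) had negative changes that were not called. The part of these changes in the results was not tested. By contrast, 22 of the 24 cumulus and granulosa cell markers on the array and 17 of 19 markers of other ovarian, stromal and blood cells did not exceed the log2 5 limit on any array. The exceptions among the latter were Kdr, at 38.3 to 62.1 units, and Myh11. Myh11 read 797.2, 103.9 and 138.6 in control eggs and 615.8, 561.1 and 489.5 after both siRNAs. Has2, Ptx3, Amh and Fshr, which define cumulus and granulosa cells, reached at most 9, 5.8, 4.9 and 4.9 units. The summed intensity of the cumulus and granulosa list was 1356 to 1619 after both siRNAs, against 1667 to 2273 in control eggs, and most of it came from Nr5a2. Its part in the results was not tested. In a pool of eggs, fewer cells with an mRNA and less of it per cell cannot be told apart.

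**Figure D1:**
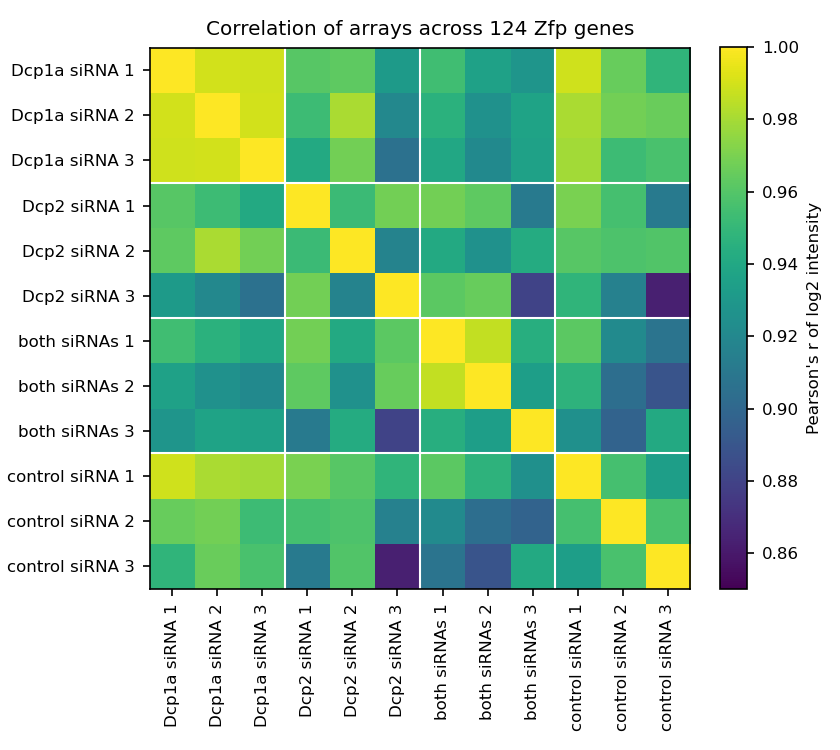
Pearson correlation of log2 intensity across the 124 Zfp genes for each pair of the 12 arrays, ordered as Dcp1a siRNA, Dcp2 siRNA, both siRNAs and control siRNA, with replicate numbers. The Dcp1a siRNA arrays form the tightest block, at 0.989 to 0.99, and the lowest value, 0.863, is that of Dcp2 siRNA replicate 3 with control replicate 3.

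The level that chose the members was read over all 12 arrays, whatever their group. Of the 124 genes, 105 lay above the limit on every array, 11 on 10 or 11 arrays and 8 on 3 to 9 arrays. For 118 genes at least 1 array of each group was above it. The remaining 207 Zfp genes did not meet the rule, and 197 of them stayed at or under the limit on all 12 arrays. The share of Zfp genes kept, 37.5%, lay beside 38.5% for all 18193 genes with 1 symbol on the array. Just inside the rule were Zfp472 and Zfp3, whose third-highest intensities were 32.4 and 32.5. Just outside were Zfp281, a transcription factor of embryonic stem cells, at 31.6 and Zfp617 at 31.3. Zfp839 met the rule mainly through the eggs that received both siRNAs, where it was above 32 on 3 arrays, against 1 control array and none of the other 6. A gene kept in this way had to differ, so its call below is a description.

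The Zfp genes as a whole shifted little. The median log2 change of the 124 genes was 0.08 after Dcp1a siRNA, -0.11 after Dcp2 siRNA and -0.07 after both siRNAs, relative to control eggs. The medians of all 6998 genes tested were 0.10, -0.08 and 0.00 in the same comparisons. After both siRNAs 55 Zfp genes had a positive and 69 a negative change, with a range of -1.53 to 2.10. The middle of the distribution, from the lower to the upper quartile, ran from -0.52 to 0.27 for Zfp genes, against -0.40 to 0.44 for all genes. Changes beyond a log2 value of 1 were seen in 4 Zfp genes upward and 8 downward, and in 9.55% and 5.9% of all genes. The values were normalized between arrays, so a change in the total mRNA of the egg would not appear in them.

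**Figure D2:**
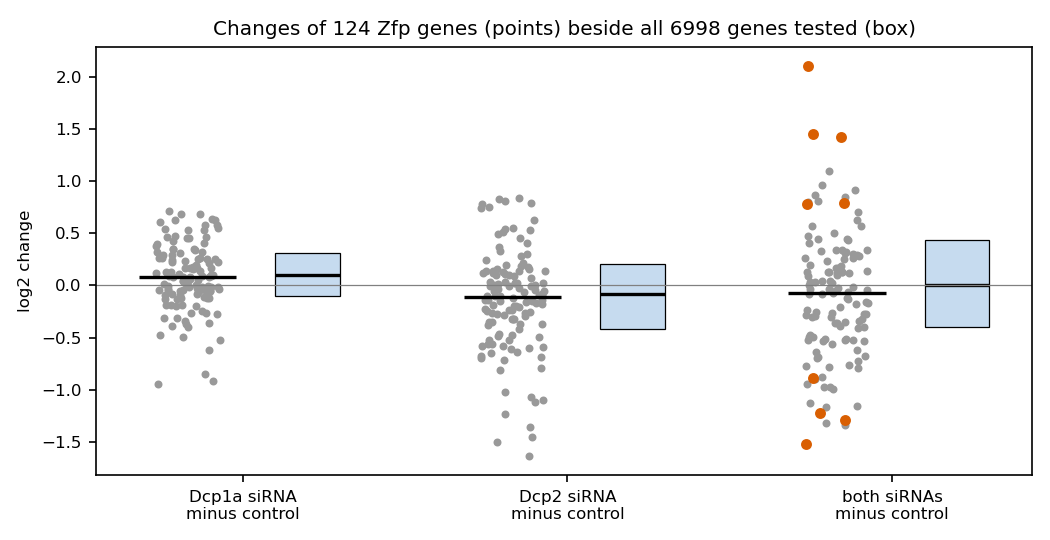
Log2 change of each of the 124 Zfp genes (points) in 3 comparisons with control eggs, beside the quartile range of all 6998 genes tested (box); horizontal bars are medians and orange points passed limma at an adjusted p under 0.05. The 9 orange points lie in the comparison with both siRNAs, 5 above and 4 below 0, and none lie in the single knockdowns.

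Loss of both decapping factors changed 9 of the 124 Zfp genes. Zfp653, Zfp296, Zfp593, Zfp109 and Zfp110 rose, and Zfp160, Zfp760, Zfp78 and Zfp638 fell (limma with Benjamini-Hochberg adjustment over 11593 probe sets, adjusted p under 0.05). Among all genes, read in the same way by their brightest probe set, 6.79% were called higher and 1.66% lower. The Zfp genes called higher were 4.03% of 124 and those called lower 3.23%. In either direction 7.26% of Zfp genes were called, against 8.45% of all genes, a share near the background. At an unadjusted p under 0.05 there were 10 Zfp genes higher and 18 lower, beside 16.7% and 11.4% of all genes. The number called rested on few arrays. It was 10 higher and 7 lower without control replicate 1, and 3 higher and 1 lower without control replicate 2. Without replicate 1 of the double knockdown it was 3 and 2, and without its replicate 2 it was 2 and 1. With each array centred on its median the split was 3 higher and 4 lower.

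Zfp653, whose human counterpart represses transcription driven by nuclear receptors, rose most. Its intensities were 186.9, 249.4 and 182 after both siRNAs, against 92.9, 36.9 and 31.2 in control eggs. The groups did not overlap, and control replicate 1 was the highest control array. Single knockdowns gave 67.1, 72.5 and 80.7 with Dcp1a siRNA and 81, 78.9 and 91.2 with Dcp2 siRNA, all below the double knockdown. The log2 change with both siRNAs was 2.10 ± 0.34 (SE, n = 3 arrays per group; adjusted p = 0.0039, limma), a 4.3-fold rise. With the variance taken only from the arrays of the compared groups its adjusted p was 0.0672, and the call held under the other 19 alternatives. The double knockdown also exceeded the Dcp1a knockdown (1.48 ± 0.34, adjusted p = 0.0172, limma), a call that ended when any 1 of the Dcp1a siRNA arrays or double knockdown replicate 2 was left out, and the Dcp2 knockdown (1.29 ± 0.34, adjusted p = 0.0485, limma). That last call was lost under 15 of 20 alternatives, with adjusted p up to 0.25. The call against the Dcp1a knockdown also ended with no filter on dim probe sets (adjusted p = 0.108, limma).

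Zfp593 is the Zfp gene with the most stable rise. Its counterpart in yeast, Bud20, takes part in the assembly of the large ribosomal subunit. Its intensities were 109.2, 139.3 and 114.6 after both siRNAs, against 36.9, 47 and 51.9 in control eggs. In the single knockdowns it read 40, 43.9 and 30.9 with Dcp1a siRNA and 54, 43.3 and 53.9 with Dcp2 siRNA. Only the eggs with both siRNAs stood apart, with every array above all 9 others. The log2 change from control was 1.43 ± 0.20 (adjusted p = 0.0019, limma), and the call held under each of the 20 alternatives tried, with changes of 1.29 to 1.53. The double knockdown exceeded the Dcp1a knockdown by 1.67 ± 0.20 (adjusted p = 0.000508, limma) and the Dcp2 knockdown by 1.26 ± 0.20 (adjusted p = 0.00336, limma). By brightest probe sets, Zfp593 was also the only member whose change with both siRNAs departed from the sum of the single changes. The departure was 1.51 ± 0.29 on the log2 scale (adjusted p = 0.015, limma interaction), where 3.72% of all genes departed upward and 0.0572% downward, 3.77% in all. The call was lost under median centring and with no filter on dim probe sets. A dim second probe set of Zfp729b, above 32 units only on the arrays with both siRNAs, also passed (1.22 ± 0.26, adjusted p = 0.0237, limma), while its brightest did not (-0.39, adjusted p = 0.951). That second probe set met the level rule only through the arrays with both siRNAs. It therefore had to differ, and its call is a description. Zfp593 itself was read by a probe set of a type that can share probes with other genes, so signal from related sequences cannot be separated from it. Its values on the 9 arrays without both siRNAs, 30.9 to 54, lay near the limit of 32.

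Zfp296, which is expressed in germ cells and mouse embryonic stem cells, also rose. Its intensities were 4331.6, 5439.5 and 3752.9 after both siRNAs, against 2132.4, 1728 and 1174.2 in control eggs. Dcp2 siRNA alone gave 3262.4, 1724.6 and 4284.9, so replicates 1 and 3 of that group reached beyond every control array and replicate 2 did not. Dcp1a siRNA alone gave 2386.4, 2027.4 and 2318.3. The log2 change with both siRNAs was 1.45 ± 0.33 (adjusted p = 0.0198, limma). The call was lost without control replicate 2 (adjusted p = 0.0627), control replicate 3 (0.0536), or replicate 1 (0.063) or 2 (0.0892) of the double knockdown. It was lost also with no filter on dim probe sets (0.1235) and with only the arrays of the compared groups (0.0603, limma).

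Smaller rises were those of Zfp109 and of Zfp110, which encodes a factor that binds the p75 neurotrophin receptor. Zfp109 read 77.5, 92.7 and 60.2 after both siRNAs, against 39.1, 52 and 40.6 in control eggs, a log2 change of 0.80 ± 0.19 (adjusted p = 0.0252, limma). In the single knockdowns it stayed between 39.4 and 42.8. Zfp110 read 177.2, 273.6 and 191.7 after both siRNAs, against 119.9, 108.4 and 140.1 in control eggs, a log2 change of 0.78 ± 0.19 (adjusted p = 0.0281, limma). In both genes replicate 2 of the double knockdown was the highest array, and neither call held without it (adjusted p = 0.111 for each). The call of Zfp109 was lost also without control replicate 3 (0.0607) or double knockdown replicate 1 (0.0878). It was lost as well under median centring (0.0767) and quantile normalization (0.0814). The same held with no filter on dim probe sets (0.0639) and with only the arrays of the compared groups (0.147, limma). That of Zfp110 was lost without control replicate 2 (0.112), Dcp1a siRNA replicate 1 (0.0505) or 2 (0.0504), under median centring (0.0504) and with the replicate number as a block (0.0557). It was lost too with no filter on dim probe sets (0.0732) and with only the arrays of the compared groups (0.1498, limma). The median of its probe sets also ended it (0.1675). Probe sets of Zfp110 differed in direction, since the others changed by 0.66 (adjusted p = 0.152) and -1.03 (adjusted p = 0.109).

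**Figure D3:**
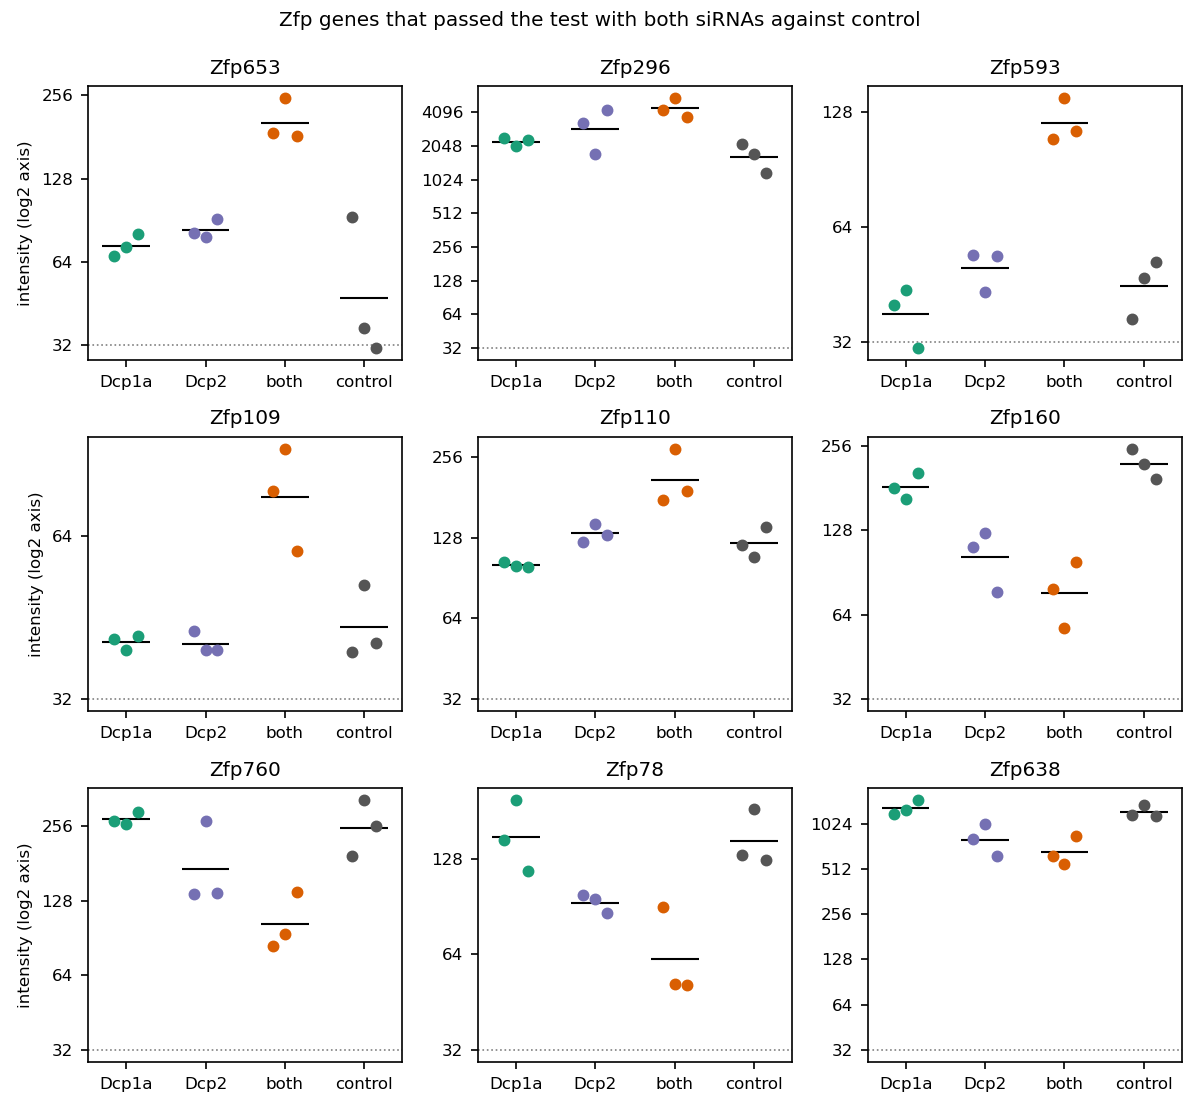
Intensity on a log2 axis of the 9 Zfp genes that passed the test with both siRNAs against control, 1 panel a gene; points are arrays, bars are geometric means of 3 arrays, and the dotted line is the limit of 32 units. In the upper 5 genes all arrays with both siRNAs lie above all control arrays, and in Zfp160, Zfp760, Zfp78 and Zfp638 all lie below.

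By brightest probe sets, Zfp160 fell most and most stably. Its intensities were 79.2, 57.1 and 98.5 after both siRNAs, against 248.2, 220.5 and 194 in control eggs. Dcp2 siRNA alone gave 111.8, 124.9 and 77, all below every control array, and Dcp1a siRNA alone gave 180.3, 164.7 and 204.6. The eggs that received Dcp2 siRNA, alone or in the mixture, thus held the 6 lowest values. The log2 change with both siRNAs was -1.53 ± 0.24 (adjusted p = 0.00363, limma), or 0.348 of the control level, and the call held under each of 20 alternatives. Under the median of all tested probe sets of the gene the change was smaller, -0.85, because its other probe set changed by only -0.18 (adjusted p = 0.54). Against the Dcp1a knockdown the double knockdown was lower by a log2 change of -1.26 ± 0.24 (adjusted p = 0.00719, limma). Dcp2 siRNA alone gave -1.10 ± 0.24, with an unadjusted p of 0.00088 and an adjusted p of 0.34 (limma).

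Zfp760 and Zfp78 followed a similar order of groups. Zfp760 read 84, 94.1 and 138.3 after both siRNAs, against 193.2, 324.6 and 256.8 in control eggs (log2 change -1.29 ± 0.30, adjusted p = 0.0227, limma). Zfp78 read 89.9, 51.6 and 51.4 after both siRNAs, against 131.4, 183.7 and 126.6 in control eggs (-1.23 ± 0.27, adjusted p = 0.0176, limma). With Dcp2 siRNA alone Zfp78 lay at 98.5, 95.2 and 86.1, below every control array, while Zfp760 lay at 136.3, 269.1 and 136.9, with replicate 2 inside the control range. Dcp1a siRNA alone left both genes overlapping with control eggs. Against the Dcp1a knockdown the double knockdown was lower for Zfp760 (-1.41 ± 0.30, adjusted p = 0.0119) and for Zfp78 (-1.27 ± 0.27, adjusted p = 0.0112, limma). These calls ended for Zfp760 without Dcp1a siRNA replicate 3 (0.0532) or double knockdown replicate 1 (0.0574) or 2 (0.0536), and for Zfp78 without Dcp1a siRNA replicate 2 (0.0552) or double knockdown replicate 2 (0.0558). Both also ended with no filter on dim probe sets (0.07545 and 0.0636, limma). Without control replicate 2 the calls against control ended for Zfp760 (adjusted p = 0.105) and Zfp78 (0.0807). Without replicate 2 of the double knockdown they ended as well (0.0921 and 0.0822), and without its replicate 1 that of Zfp760 did (0.0963). No filter on dim probe sets ended both calls against control (0.134 and 0.0928). Using only the arrays of the compared groups did so too (0.0829 and 0.0977, limma).

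Zfp638 encodes a large nuclear protein known for silencing retroviral DNA and for a part in fat cell differentiation. It read 625.1, 554.4 and 846.7 after both siRNAs, against 1168.6, 1367 and 1159.4 in control eggs. Dcp2 siRNA alone gave 811.9, 1016.5 and 625.9, and Dcp1a siRNA alone 1196, 1266 and 1460.2. On this probe set every array with Dcp2 siRNA, alone or in the mixture, was below every array without it. Its other probe set did not show this, with 1211.1, 1394.1 and 518.1 after Dcp2 siRNA alone, against 807.6, 1070.3 and 1154.7 in control eggs. The log2 change with both siRNAs was -0.89 ± 0.22 (adjusted p = 0.0309, limma). The call ended without control replicate 2 (adjusted p = 0.12), double knockdown replicate 1 (0.111) or 2 (0.133), and Dcp1a siRNA replicate 1 (0.0511) or 2 (0.0534), with the replicate number as a block (0.0646), and with the median of its probe sets (0.0814). It ended also with no filter on dim probe sets (0.113) and with only the arrays of the compared groups (0.108, limma). The other probe set changed by -0.68 after both siRNAs (adjusted p = 0.218).

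The promoters of the genes that moved furthest and have a RefSeq window are given so that their 5′ ends can be compared. Each window runs from 250 bases before to 50 bases after a gene's start in GRCm38.p6, is written 5′ to 3′ on the strand of the gene, and has its CG dinucleotides in capitals. The first 2 belong to genes that rose and the others to genes that fell with both siRNAs. Zfp653 lies at chr9:22071327-22071626 on the minus strand, Zfp296 at chr7:19577037-19577336 on the plus strand, Zfp160 at chr17:21008691-21008990 and Zfp760 at chr17:21707491-21707790, both on the plus strand.
Zfp653: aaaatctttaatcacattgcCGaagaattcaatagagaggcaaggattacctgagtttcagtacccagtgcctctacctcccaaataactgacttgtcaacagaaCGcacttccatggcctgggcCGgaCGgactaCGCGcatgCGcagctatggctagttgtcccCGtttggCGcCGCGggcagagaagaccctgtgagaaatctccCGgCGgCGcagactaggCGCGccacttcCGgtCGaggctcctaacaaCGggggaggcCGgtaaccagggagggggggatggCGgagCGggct
Zfp296: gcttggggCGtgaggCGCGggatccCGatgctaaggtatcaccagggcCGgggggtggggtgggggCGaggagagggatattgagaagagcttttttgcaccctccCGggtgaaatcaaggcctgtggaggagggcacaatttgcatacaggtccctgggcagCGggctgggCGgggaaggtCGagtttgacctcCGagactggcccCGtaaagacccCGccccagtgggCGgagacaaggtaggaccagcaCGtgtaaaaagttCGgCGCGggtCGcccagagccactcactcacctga
Zfp160: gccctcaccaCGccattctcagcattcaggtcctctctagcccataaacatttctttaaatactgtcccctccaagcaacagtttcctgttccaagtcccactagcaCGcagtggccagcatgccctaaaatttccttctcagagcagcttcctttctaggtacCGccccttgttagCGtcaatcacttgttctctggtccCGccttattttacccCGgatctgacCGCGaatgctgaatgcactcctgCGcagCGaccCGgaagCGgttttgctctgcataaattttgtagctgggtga
Zfp760: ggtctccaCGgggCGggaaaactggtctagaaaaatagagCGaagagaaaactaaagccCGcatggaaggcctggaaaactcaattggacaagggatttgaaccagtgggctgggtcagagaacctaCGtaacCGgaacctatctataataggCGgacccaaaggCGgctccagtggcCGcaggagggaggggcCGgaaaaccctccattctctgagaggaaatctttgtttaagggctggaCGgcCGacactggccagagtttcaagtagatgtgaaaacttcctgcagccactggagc

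The windows of Zfp653 and Zfp296 held 22 and 19 CG dinucleotides, and those of Zfp160 and Zfp760 held 12 each. Over the 8 called genes with a window the number was 15 to 22 in the 4 that rose and 12 to 17 in the 4 that fell, as a description without a test. Of the 124 Zfp genes 102 had a window, with a median of 16 CG dinucleotides, against 14 in 168 Zfp genes that did not meet the rule and 22 in 5656 other genes with a tested probe set. The sequence CCGGAAG, bound by factors of the ETS family, stood in 22.5% of the Zfp windows, those of Zfp653, Zfp110 and Zfp160 among them, in 19.8% of those of the other tested genes and in 9.12% of all windows. TATAAA, the TATA box, was found in 5.88%, 6.7% and 14.2% of these sets. The sequence ATGGCGG, a core of the Yy1 motif, was found in 7.84%, 8.77% and 4.19%, and in the window of Zfp653. Each was searched on both strands, and none of these 3 sequences contains another. A match is a description of these letters and not a measured site.

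Comparison of the double with each single knockdown called further members. With both siRNAs 6 of 124 Zfp genes were above their level after Dcp1a siRNA alone and 7 were below it, or 10.5% in all, beside 11.5% of all genes (8.19% higher and 3.32% lower; limma, adjusted p under 0.05). The number higher was 2 or 3 without any Dcp1a siRNA array or without double knockdown replicate 2. The number lower was 2 to 4 without any Dcp1a siRNA array, 2 without double knockdown replicate 1 and 1 without its replicate 2. It was 11 without Dcp2 siRNA replicate 2 and 12 without double knockdown replicate 3.

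Zfp592, Zfp839, Zfp235, Zfp407 and Zfp952 were called against the Dcp1a knockdown and not against control. Zfp592 read 274.1, 371 and 191.6 after both siRNAs, against 119.8, 114.7 and 119.5 after Dcp1a siRNA (1.19 ± 0.33, adjusted p = 0.0405, limma). Its adjusted p against control eggs, which ranged from 77.1 to 190.5, was 0.0656. The other 2 probe sets of Zfp592 changed by 0.26 (adjusted p = 0.411) and 0.25 (0.553) relative to the Dcp1a knockdown, and the median of its probe sets by 0.50 (0.179). Zfp839 read 62.5, 36.6 and 83.1 after both siRNAs, against 18.4, 25.4 and 21.9 after Dcp1a siRNA, at least 1.8-fold higher against the limit of 32 (adjusted p = 0.0306, limma). Setting values under the limit to the limit ended this call. Zfp235 read 111, 63.4 and 158.6 after both siRNAs, against 211.8, 216.7 and 266 after Dcp1a siRNA (-1.15 ± 0.32, adjusted p = 0.0411, limma). Zfp407 read 400.3, 375.7 and 660.8 after both siRNAs, against 867.5, 965 and 1097.8 after Dcp1a siRNA (-1.07 ± 0.30, adjusted p = 0.0437, limma). Control eggs had 127 to 162.1 for Zfp235 and 619.3 to 923.8 for Zfp407. Zfp952, singled out after its values were seen, read 109, 104.4 and 127.1 after both siRNAs, against 255.3, 211.1 and 242.1 after Dcp1a siRNA (-1.06 ± 0.26, adjusted p = 0.0215, limma). The groups of all 5 genes did not overlap in this comparison. The calls of Zfp592, Zfp839, Zfp235 and Zfp407 each ended when any array of the Dcp1a siRNA group was left out, with adjusted p up to 0.204 over all alternatives. The replicate number as a block ended those of Zfp592 (adjusted p = 0.0648), Zfp235 (0.0591) and Zfp407 (0.0659). No alternative was run for Zfp952.

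Against the Dcp2 knockdown 4 Zfp genes were higher in the double knockdown and none lower, beside 5.89% and 0.272% of all genes, 6.16% in all. These were Zfp653, Zfp593, Zfp109 (0.90 ± 0.19, adjusted p = 0.0152) and Zfp62 (1.00 ± 0.26, adjusted p = 0.045, limma). At an unadjusted p under 0.05 there were 12 higher and 6 lower, beside 12% and 3.29% of all genes. Zfp62 read 110.1, 54.1 and 83.9 after both siRNAs, against 48.7, 42.4 and 30.3 after Dcp2 siRNA and 53.8 to 62.6 in control eggs. Its range after both siRNAs overlapped that of control eggs, and its call was lost under 16 of 20 alternatives. The call of Zfp109 was lost under 5 of 20. Among these were median centring (adjusted p = 0.17), quantile normalization (0.143) and leaving out double knockdown replicate 1 (0.0662) or 2 (0.069, limma). The number called was 1 or 2 in each fit that left out an array of the Dcp1a siRNA, Dcp2 siRNA or double knockdown groups.

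Neither single knockdown changed a Zfp gene past the threshold. After Dcp1a siRNA alone 0 of 124 passed, beside 0.0572% of all genes (0.0286% higher and 0.0286% lower; limma). At an unadjusted p under 0.05 there were 2 higher and 3 lower, beside 3.07% and 1.84% of all genes. By brightest probe sets, the smallest p belonged to Zfp946, at 463.6, 487.6 and 350.8 after Dcp1a siRNA, against 814, 985.1 and 578.9 in control eggs (-0.85 ± 0.24, adjusted p = 0.853). Next was Zfp703, a transcriptional corepressor gene, at 393.4, 459.3 and 400.9 after Dcp1a siRNA, against 358.6, 180.9 and 252.6 in control eggs (0.71 ± 0.23, adjusted p = 0.853). The groups did not overlap for either gene, which was so for 11 Zfp genes upward and 5 downward, 8.87% and 4.03%, beside 7.55% and 4.3% of all genes. Without control replicate 1 the number called was 3 higher and 0 lower.

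After Dcp2 siRNA alone again 0 of 124 passed, beside 0.0286% of all genes (0 higher; limma). At an unadjusted p under 0.05 there were 6 higher and 11 lower, 4.84% and 8.87% of Zfp genes, beside 3.54% and 6.97% of all genes. By brightest probe sets, Zfp160 had the smallest p, and Zfp961 the next. A dimmer probe set of Zfp568 had a smaller p (-1.24 ± 0.25, unadjusted p = 0.000421, adjusted p = 0.264, limma). Zfp961 read 16.8, 29.9 and 9.1 after Dcp2 siRNA, against 41.3, 35.1 and 71.2 in control eggs. Its groups did not overlap, and it was at least 1.47-fold lower against the limit of 32 (adjusted p = 0.425). Zfp961 was above 32 on 0 Dcp2 siRNA arrays, against 3 Dcp1a siRNA, 1 double knockdown and 3 control arrays. It thus met the level rule only through groups where it was higher, and this difference is a description. Groups without overlap were found for 2 Zfp genes upward and 8 downward, 1.61% and 6.45%, beside 2.47% and 4.62% of all genes. Without control replicate 1 the number called was 1 higher and 0 lower. The 8 Zfp genes lower on every Dcp2 siRNA array than on any control array were Zfp472, Zfp961, Zfp160, Zfp78, Zfp638, Zfp62, Zfp91 and Zfp354b. They were singled out after their values were seen. Zfp472 was under 32 units on all of these arrays but control replicate 3, so the order of its values is not that of measured levels. Zfp91, which encodes a zinc finger ubiquitin ligase, read 6208.2, 6668.9 and 6565.2 after Dcp2 siRNA, against 9012.2, 8351.1 and 7469.2 in control eggs. It read 7169.7, 6551.3 and 6811 after both siRNAs and 9993.9, 9089.5 and 9248.3 after Dcp1a siRNA, so on this probe set all arrays with Dcp2 siRNA were below all arrays without it. Its 2 other probe sets did not show this, the brighter of them reading 132.6, 274.1 and 207.1 after Dcp2 siRNA, against 269.2, 168.7 and 234.7 in control eggs.

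**Figure D4:**
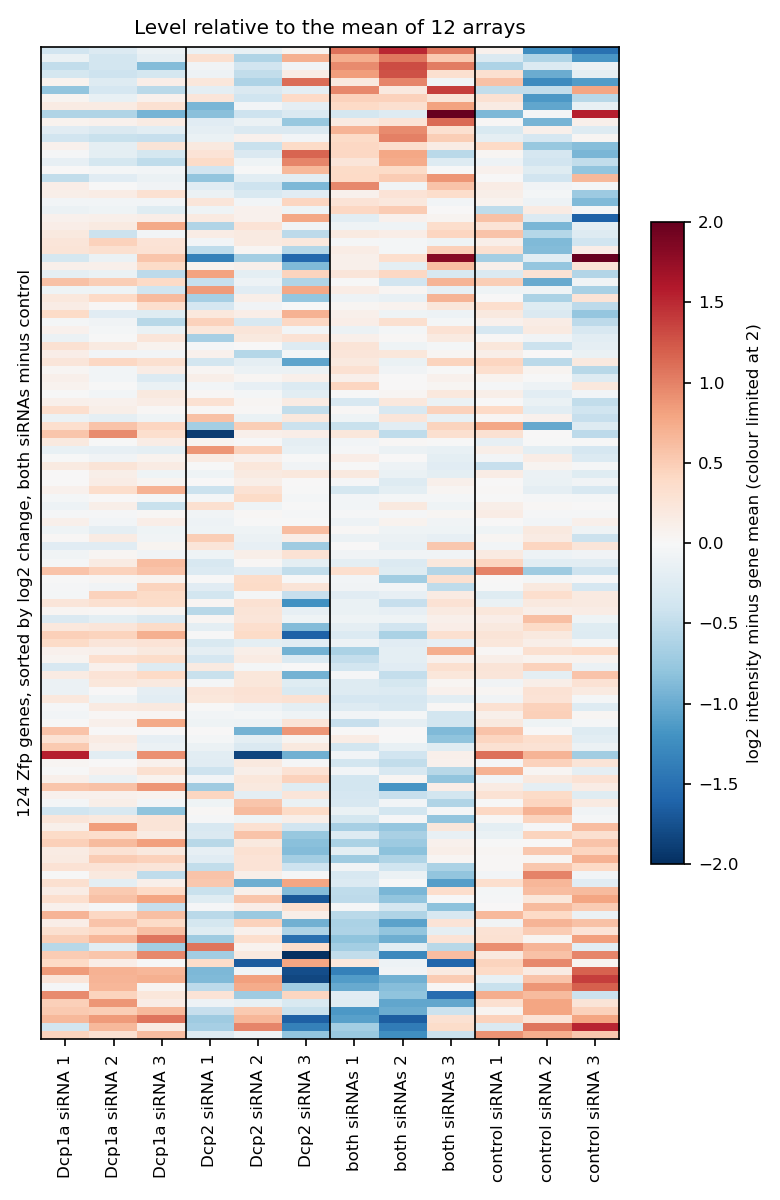
Log2 intensity of each of the 124 Zfp genes minus its mean over 12 arrays, with arrays in columns grouped by siRNA and genes in rows sorted by the change with both siRNAs against control. The sorting fixes the contrast between the right-hand groups; the Dcp1a siRNA columns resemble each other most.

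Members with a known part in RNA or ribosome biology gave 7 tested genes, of which Zfp593 rose and Zfp638 fell after both siRNAs, with a list median of 0.26. Among all genes 6.79% rose and 1.66% fell in that comparison, with a median of 0.00. The list was chosen with earlier results of these data known. Zfp622, whose yeast counterpart Rei1 acts in the maturation of the large ribosomal subunit, read 61.6, 65.8 and 990.2 after both siRNAs, against 42, 76.5 and 230.4 in control eggs. Replicate 3 of the double knockdown alone was high, and the change was 0.81 ± 0.92 (adjusted p = 0.57, limma). Zfp598, whose human counterpart marks collided ribosomes with ubiquitin, read 1626.4, 1424.8 and 2031.2 after both siRNAs, against 1819.7, 802.8 and 1605.8 in control eggs (adjusted p = 0.46). Zfp106 and Zfp385a did not pass (adjusted p = 0.97 and 0.538).

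Zfp830, needed for splicing and cell cycle progression in the mouse embryo, read 425.2, 341.3 and 288.9 after both siRNAs, against 453.8, 651.1 and 589.1 in control eggs. The groups did not overlap, but the change of -0.69 ± 0.24 did not pass (adjusted p = 0.1, limma). Zfp207, which encodes a spindle and kinetochore protein, read 88.7, 100.1 and 106.3 after both siRNAs, against 90.3, 81.2 and 50.4 in control eggs (0.45 ± 0.21, adjusted p = 0.194). Zfp451, whose human counterpart is a SUMO ligase, averaged 405.3 after both siRNAs and 695.3 in control eggs (adjusted p = 0.291). None of these 3 genes of the spindle and genome list was called.

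Of 15 tested Zfp genes with known parts in pluripotency or development, Zfp296 and Zfp110 rose and none fell, beside 6.79% and 1.66% of all genes, with a list median of -0.03. Among 3 tested members linked to retroelement or imprinted gene silencing none was called by the brightest probe set (median -0.26). Zfp758 had a change of -0.64 ± 0.31 (adjusted p = 0.203), and Zfp932, a repressor of endogenous retroviruses in embryonic stem cells, one of -0.26 ± 0.29. Zfp568, which represses a placental Igf2 transcript, belongs to both of these lists, and its probe sets disagreed. The brightest read 257.4, 258.9 and 348.8 after both siRNAs, against 331.5, 145 and 238.7 in control eggs (0.34 ± 0.33, adjusted p = 0.498). The other read 51.1, 58.4 and 51.7 after both siRNAs, against 227, 112.1 and 163.4 in control eggs (-1.58 ± 0.25, adjusted p = 0.00333, limma). Its 3 arrays with Dcp2 siRNA alone, at 71.6, 76.2 and 57.5, were also below every control array. Zfp276 was likewise called by a dimmer probe set only, at 61.8, 81.5 and 69.9 after both siRNAs, against 43.2, 18.8 and 36.3 in control eggs (1.19 ± 0.27, adjusted p = 0.0204, limma). Of the 25 members with more than 1 tested probe set, 15 had changes of the same sign in all of them and 10 did not.

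The partners through which KRAB zinc finger proteins act were mostly not called. Of 24 tested corepressor genes 0 rose and 1 fell after both siRNAs, beside 6.79% and 1.66% of all genes, with a median log2 change of -0.29 beside 0.00 for all genes. Suv39h2, a methyltransferase of histone H3 lysine 9, averaged 583.6 after both siRNAs and 1049 in control eggs (-0.83 ± 0.21, adjusted p = 0.0318, limma). Its call was lost under 10 of 20 alternatives, among them leaving out control replicate 2, any Dcp1a siRNA array, or double knockdown replicate 1 or 2, with adjusted p up to 0.226. Trim28 averaged 7855 after both siRNAs and 5478 in control eggs (0.54 ± 0.22, adjusted p = 0.155), and Setdb1 averaged 149 after both siRNAs and 76.9 in control eggs (1.11 ± 0.47, adjusted p = 0.16). Setdb2 averaged 43.3 after both siRNAs and 107.6 in control eggs (-1.36 ± 0.39, adjusted p = 0.0584).

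Zinc finger genes with other names were read in the same way. Of 72 genes of the Zscan, Zkscan, Zbtb and related families 34 were tested, and 2 rose and none fell after both siRNAs, beside 6.79% and 1.66% of all genes, with a median of 0.20. Zkscan14 averaged 229.4 after both siRNAs and 138.7 in control eggs (0.72 ± 0.17, adjusted p = 0.0255, limma). Zkscan17 averaged 412.9 after both siRNAs and 253.8 in control eggs (0.71 ± 0.17, adjusted p = 0.0261, limma). Each of these calls was lost under 5 of 20 alternatives, among them leaving out control replicate 2 or double knockdown replicate 2.

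Many Zfp genes lie side by side in the genome. By RefSeq order of protein-coding genes, 23 of the 124 members stood in 8 runs of adjacent members, the longest of which held 6. That run was Zfp760, Zfp229, Zfp820, Zfp995, Zfp942 and Zfp943. Zfp760 was the only one of the 6 that was called after both siRNAs, at -1.29, while the other 5 had changes of -0.32 to 0.17 and adjusted p of 0.292 or more (limma). In the run of Zfp109, Zfp108 and Zfp93 only Zfp109 was called, and the others had changes of -0.12 and -0.02. Zfp110 adjoins Zfp329, which had a change of 0.03 (adjusted p = 0.92).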

How the data were processed

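Messenger RNA was measured on 12 Affymetrix arrays. The deposited values are intensity values on a linear scale, made by the authors with GCRMA, per the submitters' processing notes. GCRMA adjusts for probe-specific background, brings arrays to a common distribution and joins probes into 1 value. The version of the tool is not given in the sources used. Dim values collect near a floor, and 55.6% of values were at or under 5 units. Values were taken to log2. After removal of 64 control probe sets, the 11593 with log2 above 5 on at least 3 of 12 arrays were tested in R 4.3.3 by limma 3.58.1 (eBayes after lmFit, on group means of all 12 arrays, 8 residual and 2.97 prior degrees of freedom), two-sided, adjusted over all of them by Benjamini-Hochberg at 0.05. The number of arrays limits precision. The labels do not say that a replicate number marks a shared day or batch, so the fit had no replicate block. Same-numbered arrays deviated together in some pairs only (r over 0.1 in 9 of 18, from -0.685 to 0.394). With 3 arrays per group these values cannot settle whether a batch was shared. Where a dimmer group's mean or median did not exceed log2 5, a fold is given as a bound against that limit. Genes were named by rule: the 12 largest rises and falls with both siRNAs against control among members past the threshold whose groups do not overlap, up to 5 each way in the other comparisons, or the 2 smallest p where none passed; per list, at most 4 genes called with both siRNAs against control, or the 2 smallest p where fewer than 2 were called; the 2 genes on each side of the level rule; members with a probe set called the other way; and the largest runs of neighbours. Other named genes were chosen from their lists for their known roles or after their values were seen. The members and lists were chosen with earlier results of these data known. Symbols are those of the platform annotation, and all 124 matched RefSeq of GRCm38.p6 by gene number. Of 124 genes 102 had a promoter window, the first listed per gene. The procedure was also run on simulated data with independent noise for each probe set and no shared array effects. That run therefore did not test it under the differences between arrays described above.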

Additional observations from a re-analysis of the deposited data

Results flagged for a closer look

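The change of Zfp593 with both siRNAs differed from the sum of the changes with Dcp1a siRNA and with Dcp2 siRNA. On the log2 scale this departure was 1.51, with an SE of 0.29 (adjusted p = 0.015, limma interaction), and all 3 arrays with both siRNAs lay above all 9 others. The adjusted p was 0.00908 to 0.0636 over 19 alternatives, and the departure itself was 1.36 to 1.65.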

How the results depend on the processing

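No gene named as called by its brightest probe set changed sign under any alternative run, leaving aside Zfp952, for which none was run. None was run for the dimmer probe sets of Zfp568, Zfp276 and Zfp729b either. Over the genes with alternatives, the Dcp1a and Dcp2 targets and list genes included, the call held in 478 refits and was lost in 178. Zfp593 and Zfp160 kept their calls against control and against the Dcp1a knockdown in each of 20. For both siRNAs against control the counts were 3 higher under median centring, 2 higher and 1 lower with no filter on dim probe sets, and 1 higher and 1 lower with only the arrays of the compared groups. For the double against the Dcp1a knockdown they were 3 higher and 2 lower with no filter, and 15 lower with only the arrays of the 2 groups. For the double against the Dcp2 knockdown 1 was higher under median centring and 1 under quantile normalization. It was 2 with at least 6 arrays above the limit, 2 with no filter and 2 with only the arrays of the compared groups. The interaction call was 0 under median centring and 0 with no filter. Leaving out each array in turn gave 2 to 10 higher and 1 to 7 lower for both siRNAs against control. For the double against the Dcp1a knockdown it gave 2 to 7 higher and 1 to 12 lower, and against the Dcp2 knockdown 1 to 6 higher and 0 lower. For Dcp1a siRNA against control it gave 0 to 3 higher, for Dcp2 siRNA 0 to 1 higher, and for the interaction 1 to 2 upward and 0 to 1 downward. With the replicate number as a block 4 Zfp genes were higher and 3 lower after both siRNAs against control, Zfp110 and Zfp638 being lost. It also ended the call of Zfp653 against the Dcp2 knockdown (adjusted p = 0.0883), those of Zfp592, Zfp235 and Zfp407 against the Dcp1a knockdown, and those of Suv39h2 (0.0526) and of Dcp1a after its own siRNA (0.176). The cause of these changes was not tested.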

Other observations

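Some Zfp genes carried exactly the same deposited value on several arrays, to the 1 decimal given. In 10 of the 124 genes at least 4 arrays shared a value, 8.06%, against 4.89% of all 6998 genes tested. Zfp219 read 42.1 on 8 arrays, Zfp276 49.2 on 7, and Zfp710, Zfp825 and Zfp93 each shared a value on 6 arrays. Among genes with a geometric mean above 100 units the share was 2.35% of Zfp genes and 1.47% of all genes, and the 2 Zfp genes were Zfp612, at 728.8 on 5 arrays, and Zfp942, at 404.3 on 4. None of the 9 genes called with both siRNAs against control was among the 10.

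The most variable member was Zfp622, with a within-group SD of 1.31 on the log2 scale, against a median of 0.333 over the 124 genes. Next was Zfp472, at 0.951, which read 13.8, 19.1 and 98.7 in control eggs.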
